A study of Mus musculus with 6 samples.

Results

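E proteins and Id inhibitors form a small regulatory family of helix-loop-helix proteins, and 6 of its genes were followed here: the E protein genes Tcf3, Tcf4 and Tcf12 and the inhibitor genes Id1, Id2 and Id3. They were taken by name and are 6 of the 19680 genes in the deposited table. The name of each occurs once in the table, and Id4, the remaining inhibitor gene of the family, is not among the genes analysed here. Their transcripts were counted by RNA sequencing of germinal center (GC) B cells, which divide rapidly and remodel their antibody genes after antigen. Cells from the spleens of C57BL/6 mice were sorted as B220+, CD38- and FAS+ cells, 14 days after an injection of 100 µg of NP-CGG, a hapten on a carrier protein, into the abdominal cavity. All mice were 6 to 8 weeks old, and both groups carried floxed Senp1 alleles (Senp1flox/flox). The 3 libraries called WT came from mice with these alleles alone, and the 3 called cKO from mice that also carried Cγ1-Cre. Senp1 encodes a protease that removes the modifier SUMO from proteins, and the comparison asks which transcripts differ in GC B cells when it is deleted.

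E proteins bind DNA as dimers through a basic region followed by a helix-loop-helix, at short sites called E-boxes with the letters CANNTG. Id proteins have the helix-loop-helix but lack the basic region, so an E protein paired with an Id protein cannot bind DNA. The balance between them is known to set B cell commitment, the rearrangement and diversification of antibody genes, and the choice between GC and plasma cell fates. Tcf3 encodes E2A, the E protein that early B cell development requires, Tcf12 encodes HEB, and Tcf4 encodes E2-2, which is also the defining regulator of plasmacytoid dendritic cells. Id3 is induced by antigen receptor signalling in lymphocytes, Id2 is known for innate lymphoid cells, dendritic cells and memory T cells, and Id1 is a classic target of BMP signalling.

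The gene positions below are in GRCm38 with GENCODE M21 models. Tcf3 lies at chr10:80409514-80433647 on the minus strand and Tcf12 at chr9:71842688-72111871 on the minus strand. The inhibitors are shorter genes: Id1 at chr2:152736251-152737410 and Id3 at chr4:136143497-136145755 on the plus strand, and Id2 at chr12:25093799-25097140 on the minus strand. Of other annotated genes, 11 overlap the span of Tcf12 and 1 overlaps that of Tcf4, and none shares an exonic base with them.

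The DNA-binding part of E2A exists in 2 forms because Tcf3 has a pair of mutually exclusive exons for the basic helix-loop-helix. They are shown because the deposited values are sums over the whole gene, so the 2 forms cannot be separated in them. Both exons are coding throughout, and each stands second to last in its transcript model. The 3′ one lies at chr10:80410398-80410624 (227 bases) and the 5′ one at chr10:80412827-80413062 (236 bases), both on the minus strand. Of 227 aligned bases 176 are identical (77.5%), and capitals mark these.
Tcf3, 3′ exon: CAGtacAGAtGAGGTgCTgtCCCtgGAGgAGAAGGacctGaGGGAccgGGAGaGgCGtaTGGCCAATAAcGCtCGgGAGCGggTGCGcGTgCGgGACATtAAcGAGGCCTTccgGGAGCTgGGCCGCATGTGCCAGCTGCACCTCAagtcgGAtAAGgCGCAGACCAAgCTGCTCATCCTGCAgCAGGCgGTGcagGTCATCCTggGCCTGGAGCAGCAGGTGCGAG
Tcf3, 5′ exon: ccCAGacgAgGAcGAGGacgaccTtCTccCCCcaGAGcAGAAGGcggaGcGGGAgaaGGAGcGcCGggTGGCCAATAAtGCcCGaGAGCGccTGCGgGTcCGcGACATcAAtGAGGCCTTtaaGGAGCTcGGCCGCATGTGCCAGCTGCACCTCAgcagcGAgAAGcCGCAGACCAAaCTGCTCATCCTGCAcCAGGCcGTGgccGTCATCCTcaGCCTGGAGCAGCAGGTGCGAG
The long runs of capitals show how closely the alternative exons follow each other.

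E-boxes near the members' own start sites are shown because E proteins act on such sites. RefSeq promoter windows (GRCm38.p6), which run from 250 bases before a start site to 50 after it, were found for Tcf3, Tcf12, Id2 and Id3. Tcf12 has 3 windows. The letters CANNTG, searched on both strands, occur in 72.3% of the 32851 windows of all genes, CAGCTG in 16.3%, and CAGGTG or its complement CACCTG in 20.2%. CAGCTG reads the same on both strands, and every CAGCTG is also a CANNTG. The part of each window that lies outside annotated exons is printed for Tcf3, for one Tcf12 window and for Id2, on the minus strand, with the E-box in capitals.
Tcf3, chr10:80433648-80433885: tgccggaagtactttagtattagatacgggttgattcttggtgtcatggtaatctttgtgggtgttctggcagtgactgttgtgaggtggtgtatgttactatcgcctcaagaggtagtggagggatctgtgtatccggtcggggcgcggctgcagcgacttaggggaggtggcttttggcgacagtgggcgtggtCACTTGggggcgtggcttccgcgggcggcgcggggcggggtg
Tcf12, chr9:72111872-72112069: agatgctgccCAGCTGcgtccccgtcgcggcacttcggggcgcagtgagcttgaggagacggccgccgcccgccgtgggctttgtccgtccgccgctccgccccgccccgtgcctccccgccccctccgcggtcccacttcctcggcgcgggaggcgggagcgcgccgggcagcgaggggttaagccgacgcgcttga
Id2, chr12:25096254-25096342: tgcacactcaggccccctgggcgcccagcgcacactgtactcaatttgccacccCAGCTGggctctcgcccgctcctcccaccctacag
The Tcf3 window holds a single match, CACTTG at 54 bases before the start site. The Tcf12 window shown holds CAGCTG 240 bases before its start. Of the other Tcf12 windows, one holds CAAGTG 149 bases before and CACTTG 18 bases after its start, the other CATGTG 5 bases before, and neither holds CAGCTG. The Id2 window holds CAGCTG 196 bases before its start. This RefSeq start site (chr12:25096092) and the printed stretch lie inside the GENCODE span of Id2, whose 5′ end is at 25097140. The Id3 window holds no CANNTG. These are matches of letters in short windows and say nothing of binding.

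The libraries differed in depth and in the share of mitochondrial reads, partly along the replicate numbers and partly along genotype. WT libraries held 5160902 to 10339054 gene-assigned reads and cKO libraries 3019152 to 9657005. The values below are normalized counts, reads divided by a size factor per library. A single read is worth 0.506 to 1.06 of them in the WT libraries, and 0.542 to 2.04 in the cKO libraries. Replicate 1 of both genotypes was the deepest, with 2.71% (WT) and 3.66% (cKO) of reads from mitochondrial genes. This share was 7.92% and 9.83% in WT replicates 2 and 3, and 12.3% and 19.1% in cKO replicates 2 and 3. In each same-numbered pair the cKO library was the shallower and had the higher share. What part depth and mitochondrial share had in the differences between genotypes was not tested. The first principal component, with 33.2% of the variance, placed replicate 1 of each genotype at -54.4 (WT) and -49.1 (cKO) and the others between -10.1 and 56.2. Senp1 itself was at 915, 868 and 891 normalized counts in WT and at 373, 425 and 398 in cKO, so the cKO cells still held Senp1 RNA (log2 difference -1.16, limma adjusted p = 0.111). Senp1 passed the threshold in limma with a term for replicate 1 (adjusted p = 0.0160) and in DESeq2 (adjusted p = 2.78e-09), and not in edgeR (adjusted p = 0.145). Cγ1-Cre acts in B cells that respond to antigen, and the labels do not say how many mice gave each library. The p-values therefore speak only of the spread between these samples, which may be technical.

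The sorted cells carried the markers of GC B cells. Of 12 GC B markers 11 were detected in every library, and their summed level was 47586 to 49261 in WT libraries and 44184 to 47754 in cKO libraries. Mef2b, the exception, was at 0 in WT replicates 2 and 3. Fas, which the sort selects for, was at 509 to 587 in WT and 456 to 604 in cKO. Cd38, which it selects against, was at 36.9 to 105.9 and 22.8 to 157.5. Ptprc, also taken as a check, was at 6475 to 8396 in WT and 6039 to 8264 in cKO. Naive or memory B markers (10 of 10 detected in every library) summed to 2552 to 5740 in WT and 4247 to 10570 in cKO. Plasma cell markers (8 of 8) summed to 10788 to 15316 in WT and 9545 to 18786 in cKO. Macrophage or monocyte markers (8 of 12) summed to 146 to 369 in WT and 335 to 706 in cKO. T cell markers (8 of 12) summed to 649 to 764 in WT and to 802, 1892 and 525 in cKO replicates 1 to 3. The most abundant was Lck, at 691 in cKO replicate 2 against 470 to 574 elsewhere. It gave most of the sum in every library but cKO replicate 2, with 470 of the 525 in cKO replicate 3. Trbc2 and Trac were at 235 and 180 in cKO replicate 2 against 2.04 to 53.2 and 12.3 to 42.5 elsewhere. None of the 12 T cell markers was at 0 throughout a genotype, while Cd3d, Cd3g and Cd8a had no read in cKO replicate 3. In such sorted bulk samples, fewer cells of a type and less RNA per cell cannot be told apart. What part cells of these types had in any member's value was not tested.

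Tcf3 was the most abundant transcript of the family per kilobase, followed on average by Id3, and Id1 was barely detected. Per kilobase of exon, the normalized counts of Tcf3 averaged 354 ± 75.3 (SD, n = 6 libraries), those of Id3 126.8 ± 54.0, Id2 55.5 ± 22.4, Tcf4 37.0 ± 3.93, Tcf12 27.5 ± 6.15 and Id1 1.19 ± 0.512. Tcf3 stood above the other 5 members in each of the 6 libraries. Id3 stood above Id2 within every library, although the ranges over libraries overlap (74.1 to 210 for Id3, 27.4 to 81.3 for Id2). The ranges of Id2, Tcf4 and Tcf12 overlap, so their order is not separated by the spread over libraries. Only in cKO replicate 2 was Tcf12 (37.4) above Tcf4 (34.9). The exon length of Tcf4 (27.4 kb) and of Tcf12 (15.5 kb) sums the exons of many transcript models, against 4.04 kb for Tcf3. With the longest single transcript as length, Tcf3 was at 485, Id3 at 178, Tcf4 at 118, Id2 at 68.7 and Tcf12 at 67.8. Tcf4 then passed Id2. It was also above Id3 in WT replicate 2 (132.7 against 125.8) and in cKO replicate 3 (127.2 against 103.9), so the order of Id3 and Tcf4 is not fixed. Before division by length, the mean normalized counts placed Tcf3 at the 95.6th percentile of the 14678 genes tested, Tcf4 at the 92.9th, Tcf12 at the 80.8th, Id3 at the 67.7th, Id2 at the 57.6th and Id1 at the 4.37th.

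**Figure D1:**
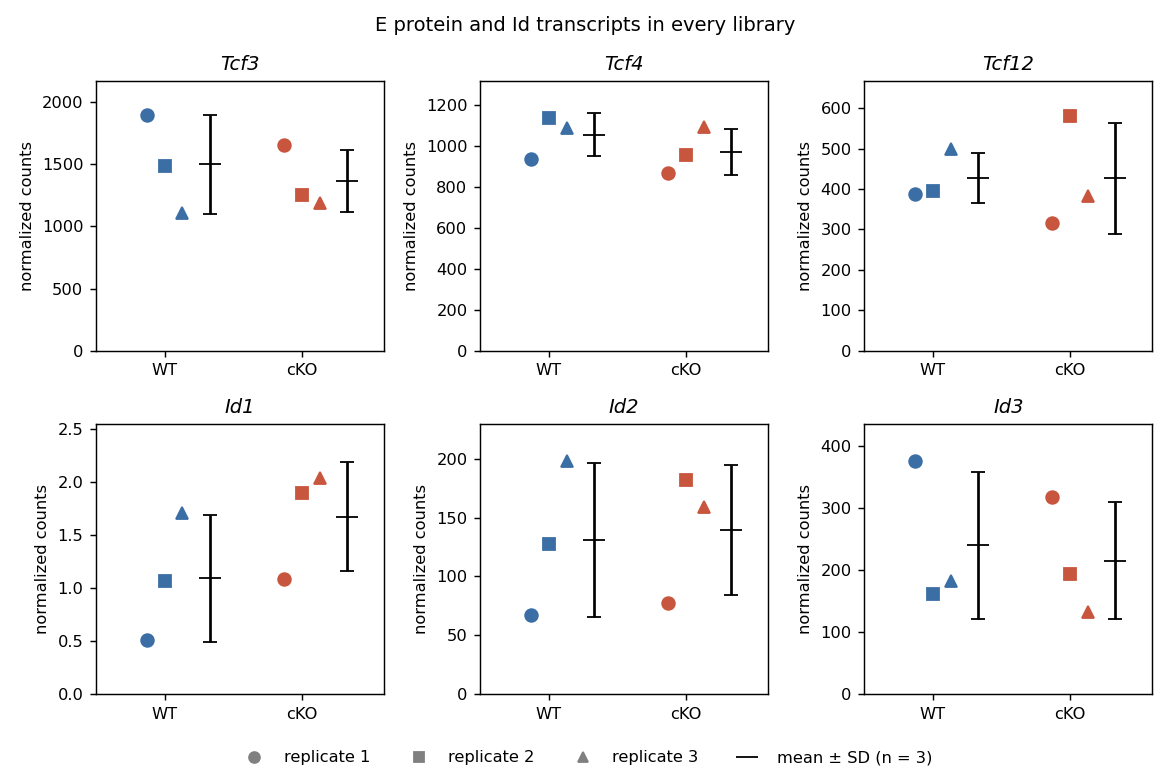
Normalized counts (vertical axes, from 0) of the 6 members in the 3 WT (blue) and 3 cKO (red) libraries, 1 panel per gene with its own scale; symbols give the replicate and bars the mean ± SD. In every panel the points of both genotypes overlap, and in replicate 1 of both genotypes Id2 is lowest and Id3 highest.

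No member differed between the genotypes beyond the spread of the replicates. By limma on log2(normalized count + 1), 0 of the 6 members passed an adjusted p under 0.05, where 0% of the 14678 genes did. At an unadjusted p under 0.05, 0 of 6 passed, where 5.15% of all genes did. WT and cKO values overlapped for all 6 members, and 11.6% of all genes had groups that do not overlap. Count tests on recovered reads also called 0 members, where edgeR and limma-voom called 0% and DESeq2 0.147% of genes. A term for replicate 1 gave 0 members and 0.0204% of genes. The intervals given with each member show which sizes of difference these samples leave possible. The authors' deposited table gives an adjusted p of 0.999581 for 5 members and none for Id1. Of the 11658 genes with a value there, 23 were under 0.05 (16 higher and 7 lower in cKO).

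Tcf3, the gene for E2A, was at 1896, 1488 and 1107 normalized counts in WT replicates 1 to 3 and at 1651, 1255 and 1189 in cKO replicates 1 to 3. Replicate 1 was the highest of each genotype, and all cKO values lay inside the WT range. The means were 1497 ± 394 in WT and 1365 ± 250 in cKO (SD, n = 3 each). The log2 difference was -0.11 (SE 0.21, 95% interval -0.60 to 0.37), which is a cKO level of 0.659 to 1.29 times the WT level, with a limma adjusted p of 0.968. The sign was negative within replicate 1 (-0.20) and over replicates 2 and 3 (-0.07), but turned to 0.07 without WT replicate 1.

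Tcf4, the gene for E2-2, was the steadiest member. The gene lies at chr18:69343356-69689079 (GRCm38) on the plus strand. It was at 935, 1138 and 1089 normalized counts in WT and at 868, 957 and 1091 in cKO. Replicate 1 was the lowest of each genotype, the reverse of Tcf3, and the genotypes overlap. The means were 1054 ± 106 and 972 ± 112 (SD, n = 3 each), and the log2 difference was -0.12 (SE 0.14, 95% interval -0.44 to 0.20, limma adjusted p = 0.947). The interval bounds the cKO level at 0.737 to 1.15 times the WT level, the narrowest of the 6. Plasmacytoid dendritic cells, which depend on E2-2, had 7 of 10 markers in every library, with sums of 6819 to 8352 in WT and 6561 to 8348 in cKO. Most of that sum came from genes B cells also express, such as Irf8 and Spib. Of the 8 markers tested, 7 had a positive and 1 a negative log2 difference, with a median of 0.52. Of these, 0 passed an unadjusted p under 0.05 by limma. Siglech was at 0.506 or less in WT and at most 4.09 in cKO. Cox6a2 and Klk1 were at most at 0.854 and 1.06 in WT, a level of single reads, and had no read in cKO. What part such cells had in the Tcf4 values was not tested.

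Tcf12, the gene for HEB, was at 388, 395 and 499 normalized counts in WT and at 316, 581 and 382 in cKO. The cKO libraries held both the lowest and the highest value, so the WT range lies inside the cKO range. The means were nearly equal, 427 ± 62.0 in WT and 426 ± 138 in cKO (SD, n = 3 each), and the log2 difference was -0.04 (SE 0.23, 95% interval -0.56 to 0.48, limma adjusted p = 0.991). Its sign turned with single libraries: it was -0.29 without cKO replicate 2 and 0.15 without cKO replicate 1. Within replicate 1 it was -0.30 and over replicates 2 and 3 it was 0.09. The T cell, naive or memory B, plasma cell and macrophage marker sums were all highest in cKO replicate 2, and their part was not tested.

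Id3, the most abundant inhibitor, was at 375.6, 160.8 and 182 normalized counts in WT and at 318, 193.6 and 132.8 in cKO. Replicate 1 of both genotypes stood well above the other 4 libraries, whose values overlap. The means were 239 ± 118 and 215 ± 94.6 (SD, n = 3 each), and the log2 difference was -0.14 (SE 0.39, 95% interval -1.02 to 0.74, limma adjusted p = 0.980). The interval runs from 0.493 to 1.67 times the WT level. Without WT replicate 1 the log2 difference was 0.24, and without cKO replicate 1 it was -0.47. Within replicate 1 it was -0.24 and over replicates 2 and 3 it was -0.09.

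Id2 ran the other way across libraries. It was at 66.7, 127.8 and 198 normalized counts in WT and at 77.0, 182 and 159 in cKO. Replicate 1 was the lowest of each genotype. The means were 131 ± 65.8 and 139.5 ± 55.3 (SD, n = 3 each), and the log2 difference was 0.13 (SE 0.44, 95% interval -0.86 to 1.13, limma adjusted p = 0.982). The interval runs from 0.551 to 2.18 times the WT level, the widest of the members with more than a few reads. The sign turned to -0.28 without WT replicate 1 and to -0.10 without cKO replicate 2, and the difference was 0.51 without cKO replicate 1. Within replicate 1 the difference was 0.20 and over replicates 2 and 3 it was 0.10. NK and innate lymphoid markers, from cells that depend on Id2, were detected in every library for 6 of 10 genes. They summed to 161 to 252 in WT and 196 to 438 in cKO. The most abundant were Il2rb, at 61.3 to 205 over the libraries, and Tbx21, at 27.7 to 91.9. The sum was lowest in WT replicate 3 and highest in cKO replicate 2. What part such cells had in the Id2 values was not tested.

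Id1 was at the limit of detection, with 1, 1 and 2 reads in WT and 2, 1 and 1 in cKO. In normalized counts these are 0.506, 1.06 and 1.71 in WT and 1.08, 1.90 and 2.04 in cKO. With 4 reads per genotype, the rate ratio of cKO to WT was 1.43, with an exact 95% interval of 0.266 to 7.67 that covers counting error only. The limma log2 difference was 0.38 (SE 0.61, adjusted p = 0.966). These reads do not separate the ratios inside this interval, and a detection limit for Id1 was not computed.

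**Figure D2:**
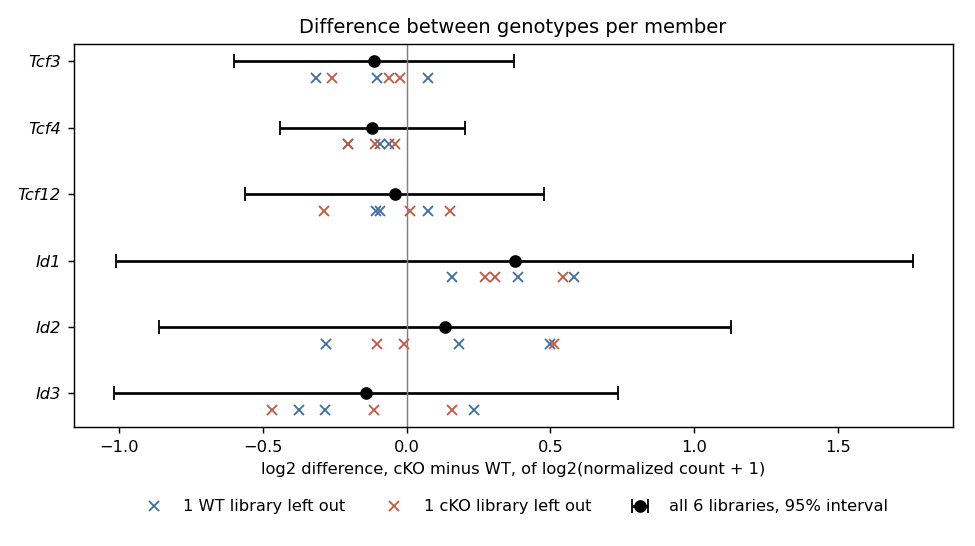
Log2 difference, cKO minus WT, of log2(normalized count + 1) for each member (horizontal axis), with the estimate over all 6 libraries and its 95% interval in black and the estimates that leave out 1 WT (blue crosses) or 1 cKO (red crosses) library below it. Every interval covers 0, that of Tcf4 is the narrowest, and the crosses of Tcf3, Tcf12, Id2 and Id3 lie on both sides of 0.

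Id2 and Id3 varied widely between replicates. Id1, at 1 or 2 reads per library, has a coefficient of variation of 55.1% in WT and 30.8% in cKO, below the 89.2% and 99.7% that counting alone gives. Counting reads alone would give Id3 a coefficient of variation of 5.48% (WT) and 7.65% (cKO), and the observed values were 49.4% and 44.02%. For Id2 they were 50.3% and 39.7% against 8.12% and 11.1% from counting. The E proteins were steadier, from 10.04% for Tcf4 in WT to 32.3% for Tcf12 in cKO, with 2.28% to 6.14% from counting. The SD of log2 values within genotypes was 0.73 for Id2, 0.64 for Id3, 0.35 for Tcf12, 0.33 for Tcf3 and 0.16 for Tcf4. Among the 7030 genes averaging 100 or more normalized counts, whose median SD was 0.21, these rank at the 96.5th, 95.6th, 80.8th, 78.1st and 28.3rd percentile. Depth and mitochondrial share moved with these values: the deep, low-mitochondrial replicate 1 held the highest Id3 and Tcf3 and the lowest Id2 and Tcf4 of each genotype. Their part in this spread was not tested.

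The composition of both sides of the family followed the same division. Tcf3 made up 88.8%, 84.6% and 79.2% of the summed E protein level per kilobase of exon in WT and 88.7%, 81.1% and 82.0% in cKO. Tcf4 gave 6.46% to 11.5% and Tcf12 4.42% to 9.77%. Tcf3 was thus the main E protein transcript in every library, also with the longest transcript as length (64.5% to 79.0%). Among inhibitors, Id3 gave 88.3%, 62.7% and 55.1% of the summed level in WT and 84.5%, 58.6% and 52.5% in cKO, and Id2 gave 11.5%, 36.6% and 44.1% in WT and 15.02%, 40.5% and 46.3% in cKO. The inhibitor pool was thus mostly Id3 in replicate 1 of both genotypes and close to even in replicate 3. Id1 never exceeded 1.25%. The summed inhibitor level over the summed E protein level came to 0.449, 0.329 and 0.533 in the WT libraries and to 0.456, 0.482 and 0.394 in the cKO libraries, so the genotypes overlap in this ratio of transcripts too.

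**Figure D3:**
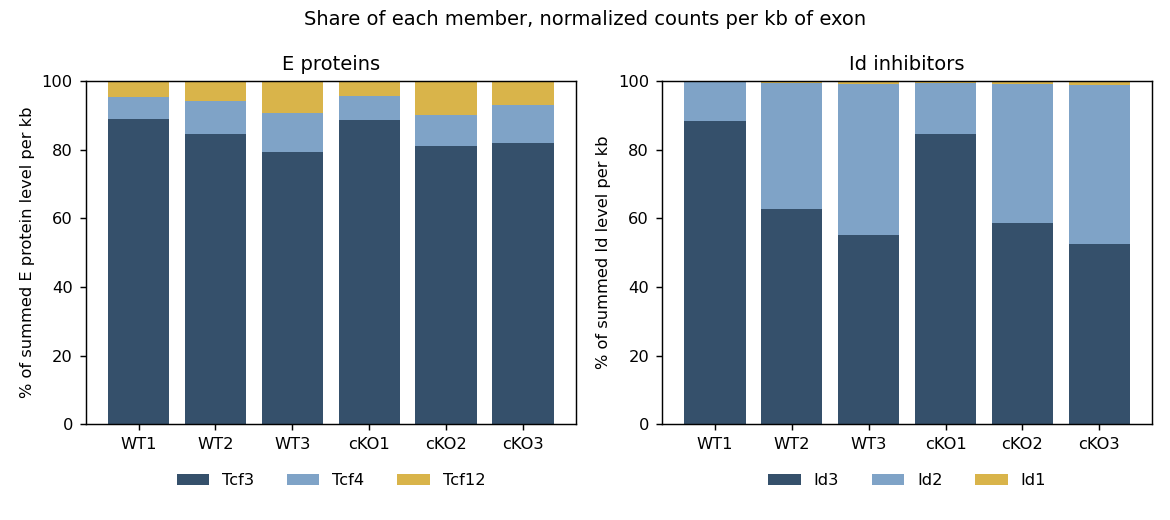
Share of each member (vertical axis, % of the summed level per kilobase of exon) in every library, E proteins on the left and Id inhibitors on the right. Tcf3 fills 79.2% to 88.8% of every left bar, while the Id3 part of the right bars falls between 52.5% and 88.3% and is largest in replicate 1 of both genotypes.

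For each member the 3 genes with the most similar course over the 6 libraries were sought by Pearson's r of log2 values, among 8058 genes (8059 for Id1) averaging 50 or more normalized counts. The closest to Tcf3 were Lrrc59 (r = 0.998), Zfpl1 (0.998) and Maea (0.995). Those closest to Id2 were Tnfaip3 (0.996), which encodes the NF-κB inhibitor A20, Zfp281 (0.996) and Chd1 (0.993), a chromatin remodeler. Tnfaip3 was at 428, 1072 and 1863 normalized counts in WT and at 478, 1875 and 1530 in cKO, and so was also lowest in replicate 1. Closest to Id3 were Mrpl27 (0.985), Dhrs7b (0.984) and Tcf25 (0.983), to Tcf4 Syncrip, Plaa and Ikzf5 (0.985 each), and to Tcf12 Herc1 (0.991), Zbtb37 (0.989) and AW112010 (0.983). With 6 points, 135 to 382 genes had an r over 0.9 with each of the members. All points share their library's depth and mitochondrial share, so these values describe a shared course over libraries and no more. For Id1 the closest were Pde1b, Zfp12 and Hexim1, but its values rest on 1 or 2 reads.

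The genes around the family were described from 6 lists, by counts and medians from the same fit. Over all genes tested the median log2 difference was -0.0019, at an unadjusted p under 0.05 cKO was higher for 2.98% of genes and lower for 2.17%, and 6.28% and 5.28% had every cKO library above or below every WT library. No list gene passed an adjusted p under 0.05 by limma with genotype alone, edgeR or limma-voom. Senp1 itself was the 1 list gene called by DESeq2, and the 1 called by limma with a term for replicate 1. The list medians are small and moved with single libraries, as given with each list.

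Known E protein target genes of B cells did not move together. Of 27 tested, 14 had a positive and 13 a negative log2 difference, with a median of 0.07, and 0 were higher and 1 lower at an unadjusted p under 0.05. That gene was Foxo1, a transcription factor that organises the GC dark zone, at 1192, 1338 and 1521 normalized counts in WT and at 1027, 1148 and 1085 in cKO. All 3 cKO values lay below all WT values (log2 difference -0.31, SE 0.13, limma adjusted p = 0.915). Ets1, a transcription factor that restrains plasma cell formation, was at 4147 ± 155 in WT and 3300 ± 631 in cKO (SD, n = 3 each), also without overlap. Pou2af1, the B cell coactivator OCA-B, was at 9268 ± 1412 and 7123 ± 1917, and its groups overlap. The adjusted p of each of these 3 genes was 0.915 by limma. The count of 2 lower genes without overlap, Foxo1 and Ets1, is near the background share. With 1 library left out the list's median ran from -0.02 (without cKO replicate 3) to 0.06 (without WT replicate 3).

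Of the other helix-loop-helix and LIM partners of E proteins, 8 of the 14 in the table were abundant enough to test. Among these 7 had a positive difference, with a median of 0.26, and 1 was higher at an unadjusted p under 0.05. Lyl1, which pairs with E proteins in blood progenitors, was at 812, 599 and 484 normalized counts in WT and at 1167, 875 and 801 in cKO. The cKO values lay higher, but cKO replicate 3 was just below WT replicate 1, so the groups overlap (log2 difference 0.60, SE 0.22, limma adjusted p = 0.915). Lmo4, a LIM-only adaptor, was at 214 ± 36.7 in WT and 165 ± 12.9 in cKO, and Ldb1, which bridges such complexes, at 624 ± 35.6 and 730 ± 19.0 (SD, n = 3 each). Neither overlapped, in opposite directions. Gata1, an erythroid factor, was at 0.674 ± 1.17 in WT and 3.17 ± 1.34 in cKO, a level of a few reads. The list's median was 0.24 without cKO replicate 2 and 0.55 without WT replicate 3.

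Coactivators and corepressors of E proteins had 5 positive and 11 negative differences among 16 tested, with a median of -0.11, and 0 passed an unadjusted p of 0.05 in either direction. Kat2a, an acetyltransferase, was at 318 ± 21.2 in WT and 404 ± 96.9 in cKO, while its relative Kat2b was at 188 ± 3.43 and 161 ± 12.3 (SD, n = 3 each). A pair of ETO family corepressor genes also differed in sign, with Cbfa2t2 at 181 ± 23.9 and 143.5 ± 32.4 and Cbfa2t3 at 252 ± 11.8 and 292 ± 41.5. The list's median was -0.16 without cKO replicate 2, -0.07 without WT replicate 3 and -0.05 without cKO replicate 1.

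The list on stability and modification of E and Id proteins holds SUMO and ubiquitin enzymes, calmodulins and kinases. Of 23 tested, 8 had a positive and 15 a negative difference, with a median of -0.10, and 0 were higher and 3 lower at an unadjusted p under 0.05. One of these was Senp1, the deleted gene. Calm2, one of the genes for calmodulin, which blocks DNA binding by E proteins when loaded with calcium, was at 1792, 2036 and 1850 normalized counts in WT and at 1514, 1458 and 1548 in cKO. No cKO value reached the WT range (log2 difference -0.33, SE 0.12, limma adjusted p = 0.915). Usp1, a deubiquitinase that stabilises Id proteins, was at 1207, 1571 and 1317 in WT and at 1061, 1091 and 1044 in cKO. Its groups did not overlap either (log2 difference -0.35, SE 0.14, limma adjusted p = 0.915). Stub1, a ubiquitin ligase that acts on E2A, was at 231 ± 77.6 in WT and 298 ± 41.4 in cKO (SD, n = 3 each). The list's median was -0.0077 without cKO replicate 2, -0.06 without WT replicate 1 and -0.15 without cKO replicate 1.

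BMP and TGF-β signalling genes, which induce Id genes in many cells, had 8 positive and 15 negative differences among 23 tested, with a median of -0.05. At an unadjusted p under 0.05, 0 were higher and 2 lower. Tgfbr1, a TGF-β receptor chain, was at 621, 775 and 709 normalized counts in WT and at 561, 558 and 462 in cKO. All cKO values were below all WT values (log2 difference -0.41, SE 0.15, limma adjusted p = 0.915). Eng, a coreceptor, had 8 reads in WT and 0 in cKO, at least 1.87-fold lower when the cKO level is set at 3 reads over the group. Acvr1b was at 139 ± 6.93 in WT and 97.5 ± 37.3 in cKO (SD, n = 3 each), and Bmp7 was at a few reads in both. The list's median ran from -0.20 without cKO replicate 2 to 0.05 without cKO replicate 1, and WT replicates 1, 2 and 3 left out in turn gave -0.13, -0.11 and -0.01.

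Antigen receptor, ERK and Notch signal genes had 15 positive and 6 negative differences among 21 tested, with a median of 0.19, and 2 were higher and 0 lower at an unadjusted p under 0.05. Stat5a, a transcription factor downstream of cytokine receptors, was at 269, 219 and 213 normalized counts in WT and at 296, 313 and 319 in cKO. Its groups did not overlap (log2 difference 0.41, SE 0.15, limma adjusted p = 0.915). Nab2, which binds and limits EGR factors, was at 139, 193 and 185 in WT and at 199, 232 and 282 in cKO, also without overlap (log2 difference 0.46, SE 0.20, limma adjusted p = 0.915). Prdm1, the plasma cell regulator, was at 89.2 ± 26.6 in WT and 58.6 ± 14.8 in cKO, and Myc at 549 ± 184 and 732 ± 229 (SD, n = 3 each), both with overlap. The list's summed level was 7595 in WT replicate 1 and 7751 in cKO replicate 1 against 9534 to 14854 in the other libraries, so this sum, like Id2, was lowest in replicate 1 of both genotypes. The list's median was 0.02 without cKO replicate 2 and 0.09 without WT replicate 1. That cKO library also had the highest T cell, naive or memory B, plasma cell and macrophage marker sums. What part such cells had in the list's median was not tested.

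**Figure D4:**
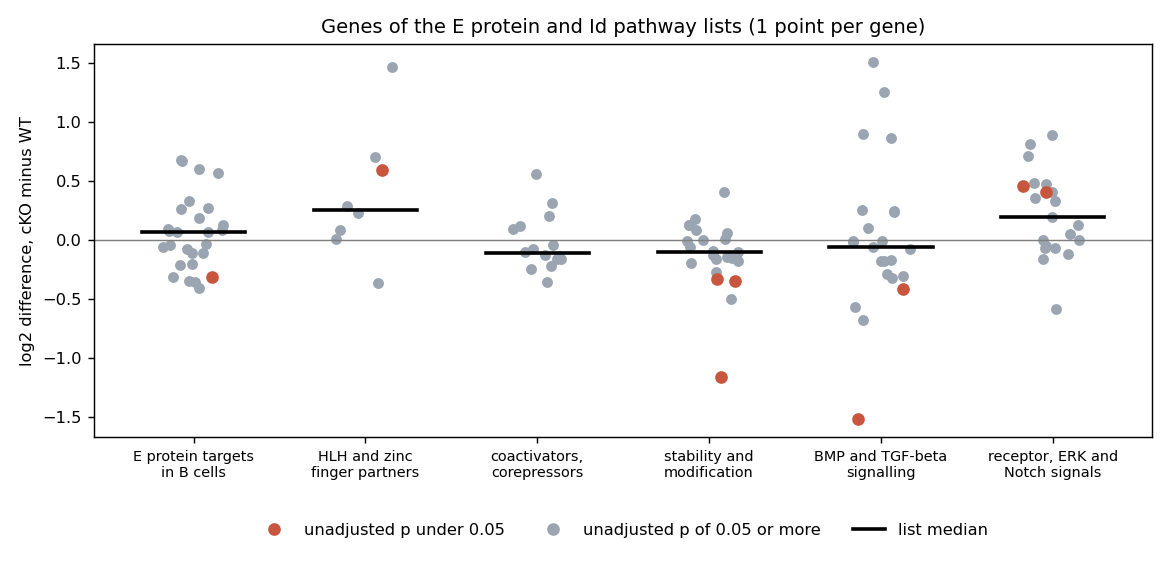
Log2 difference, cKO minus WT (vertical axis), of each tested gene in the 6 lists, 1 point per gene, with a bar at the list's median; red points have an unadjusted p under 0.05. The medians lie between -0.11 and 0.26, and the lowest red point of the stability list is Senp1.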

How the data were processed

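RNA sequencing of 3 WT and 3 cKO libraries was deposited as 1 table of 19680 genes. For every library the authors deposited a signal, the gene's reads over a library size factor. Per the file headers, the table also gives the authors' log2 fold change with standard error, a test score (Wald statistic), a p-value and an adjusted p, which is empty for 8022 genes. The mm10 genome and the tools SAMtools, HTSeq, DESeq2, TopHat2, HISAT and HISAT2 stand in the submitters' processing notes. Strand setting, annotation release and handling of multiply mapped reads were not given in the sources used here. Whole reads were recovered from 100% of values (tolerance 0.01 read).

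Because the values are normalized, the main test was limma 3.58.1 (R 4.3.3) with its trend option, applied to log2(value + 1) of the 14678 genes whose mean was 1 or more. Genotype was the only term, and two-sided p-values were Benjamini-Hochberg adjusted over all these genes. Differences on this scale understate changes of low genes. Alternatives were edgeR 4.0.16, DESeq2 1.42.0 and limma-voom on recovered reads, other scalings, pseudocounts and filters, a replicate block and left-out libraries. The scripts were tested on simulated data.

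The members and gene lists were chosen with earlier results of these data known. Genes named are the 6 members, up to 4 genes per pathway list by smallest unadjusted p, and up to 3 per reported marker list by level. Senp1, Ptprc, Cd38 and Fas, and the 3 genes most like each member in course, were also named. Conventional dendritic, granulocyte, erythroid, endothelial and stromal marker lists were drawn up but are not described. Mef2b, Cd3d, Cd3g, Cd8a, Cox6a2, Klk1, Siglech, Fos, Egr1 and Stat3 were named after their values were seen. A gene of the E protein target list that the rule takes is not reported here. Lengths and positions come from GENCODE M21, which holds 19589 of the table's genes. The sequences were read from GRCm38 and from RefSeq promoter windows (GRCm38.p6), which hold no entry for Id1 and Tcf4. The order of levels per kilobase under the longest transcript was added after the data were seen.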

Additional observations from a re-analysis of the deposited data

How the results depend on the processing

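Over the alternatives run, the adjusted p of the members lay between 0.695 and 0.9999, and no alternative called a member. Of 111 member values under alternatives, 100 kept their direction and 11 did not. Tcf12 turned to 0.00053 with edgeR and to 0.085 with replicates 2 and 3 alone. With 1 library left out, the log2 differences ran from -0.31 (without WT replicate 3) to 0.073 (without WT replicate 1) for Tcf3, -0.21 to -0.04 for Tcf4, -0.29 (without cKO replicate 2) to 0.15 (without cKO replicate 1) for Tcf12, 0.16 to 0.58 for Id1, -0.28 (without WT replicate 1) to 0.51 (without cKO replicate 1) for Id2 and -0.47 (without cKO replicate 1) to 0.24 (without WT replicate 1) for Id3. The cause of these turns was not tested. Id1 had no value with a mean of at least 10, with edgeR or with limma-voom, whose filters remove it.

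Over all genes, limma called 0 at an adjusted p under 0.05, as did edgeR and limma-voom, while DESeq2 called 20 and a term for replicate 1 gave 3. At an unadjusted p under 0.05, 756 genes passed, 1345 with a term for replicate 1 and 345 (without WT replicate 2) to 1363 (without cKO replicate 1) with a library left out. Scaling by library totals moved the median of all genes to -0.08 and that of the coactivator and corepressor list to -0.19. The median of the partner list was 0.55 without WT replicate 3, that of the stability list -0.0077 without cKO replicate 2 and that of the receptor list 0.02 without cKO replicate 2. That of the E protein targets lay between -0.02 and 0.09 and that of the BMP and TGF-β list between -0.20 and 0.05, so the sign of either is not fixed. The longest transcript as length moved the level per kilobase of Tcf3 to 485, of Tcf4 to 118 and of Tcf12 to 67.8.

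The replicate numbers are shared by the genotypes, and the labels call the mice paired without tying a number to a litter or day. Deviations from the group means correlated at 0.69, 0.05 and 0.31 for the same-numbered pairs 1, 2 and 3, and WT replicates 2 and 3 correlated better with another number (0.15 and 0.36), so the numbers were not taken to pair the samples, although the libraries numbered 1 deviate together. With a replicate block 1 gene was called and 1333 passed an unadjusted p under 0.05, and 0 members passed either threshold (Tcf3 adjusted p = 0.770). Senp1 had an adjusted p of 0.0586 in that fit. Reads limit Id1, at 1 or 2 per library, and cKO replicates 2 and 3, the shallowest libraries.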
